A study of Saccharomyces cerevisiae with 22 samples.

Results

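The Rgm1 fusion was represented by 2 calling-card libraries of Saccharomyces cerevisiae, each holding the genomic positions where the retrotransposon Ty5 had inserted while carrying the barcode of Rgm1. They were chosen by their labels, which name the fusion and the multiplex replicate. They are 2 of the 22 samples of the series and 2 of its 16 multiplex libraries, and together they hold 9701 of 280007 multiplex insertion sites. Rgm1 was set against the other 14 multiplex libraries, in which Gal4, Kar4, Lee1, Rpi1, Sef1, Sfg1 and Yrm1 (7 fusions, 2 replicates each) were assayed, and against 1 library made without any Sir4.

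Calling cards record where a protein sits on DNA. Sir4 binds the Ty5 integrase, so a DNA-binding protein fused to Sir4 brings Ty5 to the sites that it occupies, and the inserted copy stays behind as a mark. Rgm1 is a zinc-finger protein of the C2H2 class with a domain rich in proline, described as a putative transcriptional repressor whose overproduction slows growth, and its zinc fingers resemble those of the stress regulators Msn2 and Msn4.

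In the multiplex, 8 Sir4 fusions were pooled and a barcode within Ty5 told their insertions apart; the replicate number names the pool, and the design text calls the pools biological replicates. Colonies that had gained a Ty5 copy were harvested together, their DNA was cut with 1 of 3 restriction enzymes per aliquot, and the junctions were amplified by inverse PCR and sequenced. Rgm1, the other fusions and the Sir4-free library share 1 strain: a MATa/MATα diploid with his3∆1, leu2∆0, ura3∆0, sir4::KanMX and trp1::Hyg on both copies and met15∆0 and lys2∆0 on 1 copy. Every group therefore lacked native Sir4. The medium was synthetic complete with 2% glucose or galactose, and the labels do not say which sugar a library had or how each fusion was expressed.

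A count was 1 distinct site (chromosome, base and direction of insertion), and a share is the percent of a library's sites that fell in a 1-kb bin. The Rgm1 libraries had 4755 and 4946 sites (78316 and 74066 reads), and the other 14 multiplex libraries had 13886 to 54987 sites (median 15309.5). Rgm1 was thus the shallowest of the 8 fusions. A bin with no Rgm1 site can hold up to 0.0631% of replicate 1 and 0.0607% of replicate 2. These limits and the intervals below cover counting error only. The Sir4-free library had 79573 sites.

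The Rgm1 replicates were compared bin by bin. Fisher's exact test (two-sided) was run in the 324 bins that had at least 5 sites over the pair: 0 bins differed after adjustment, and 19 had an unadjusted p under 0.05. Bins near this minimum could not pass whatever their split, so the count bears on the fuller bins. The replicates had 599 sites at the same base and direction, which is 12.6% of replicate 1 and 12.1% of replicate 2. Sites listed at the same base also occurred between Rgm1 and other fusions, in 2.24% to 10.2% of an Rgm1 library, within the same pool and across pools. When such a base was kept only in the library with most reads in its pool, 4188 and 4443 Rgm1 sites remained.

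Rgm1 held more insertions than the other 7 fusions in 106 of 5460 bins tested (1.94%), at 89 separate loci. It held fewer in 6 bins (0.11%). The test was edgeR's quasi-likelihood test with Benjamini-Hochberg adjustment over all bins, with a threshold of 0.05, and Rgm1 was compared with the mean of the other 7 fusions. In 88 of the 106 bins both Rgm1 replicates exceeded each of the other 14 libraries. The count of higher bins fell to 74 without Rgm1 replicate 1 (73 among the 106), to 67 without Rgm1 replicate 2 (65 among the 106) and to 64 with sites of at least 5 reads (63 among the 106). With normalization factors taken from the 1-kb bins themselves, 77 bins were higher, all among the 106, and 49 were lower.

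In the same fit Rgm1 was also set against each fusion singly. It exceeded all 7 in 41 of the 106 bins, 6 of them in 19 bins and none in 5. The 106 bins included 53 above Gal4 (0.971% of all bins tested were above it), 92 above Kar4 (1.9%), 89 above Lee1 (1.74%) and 79 above Rpi1 (1.48%). They included 72 above Sef1 (1.32%), 93 above Sfg1 (1.87%) and 82 above Yrm1 (1.54%). The same libraries chose the 106 bins, so these counts are a description; they also depend on the normalization factor of each fusion, which was lowest for the Gal4 libraries (0.438 and 0.406).

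The higher bins took 40.1% of the sites of Rgm1 replicate 1 and 41.2% of replicate 2, against 2.11% to 9.70% of the other 14 libraries and 2.80% of the Sir4-free library. Among the other fusions the Rpi1 libraries had most (9.35% and 9.70%), then Sef1 (6.62% and 6.36%) and Gal4 (4.99% and 4.92%). This is a description, since the same contrast chose the bins. Mean share in a higher bin was a median of 11.1 times the mean of the other libraries. Against the Sir4-free library, in a fit that assumes this single library to vary like the fusions, Rgm1 was higher in 107 of 5460 bins (1.96%) and lower in 0 (edgeR; 28 lower bins had an unadjusted p under 0.05), and 95 of the 106 bins were also higher there.

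**Figure D1:**
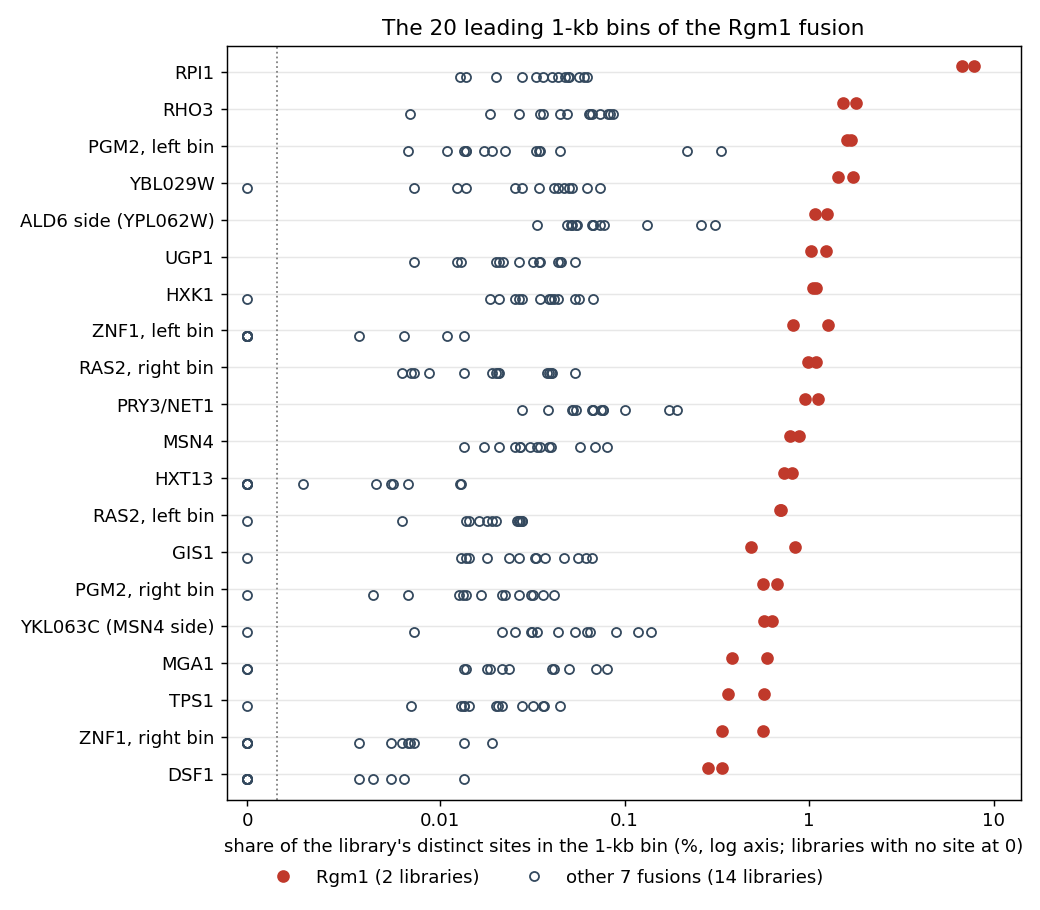
Share of each library's distinct sites in the 20 bins with the smallest p (percent, log axis, libraries with no site drawn at 0 left of the dotted line); filled points are the 2 Rgm1 libraries and open points the 14 libraries of the other fusions. The bins were required to have both Rgm1 libraries above all 14 others, so every Rgm1 point lies right of every open point in its row. RPI1, with 7.84% and 6.75%, lies farthest right.

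The single fullest Rgm1 bin lay beside RPI1 (chromosome 9, 138001 to 139000, in the coordinates of the deposited files, whose build the labels do not name). RPI1 encodes a regulator described as an antagonist of the Ras and cyclic AMP pathway, and it is itself the gene of another fusion in the pool. The bin had 373 sites (7.84%) in Rgm1 replicate 1 and 334 (6.75%) in replicate 2, against 0.0128% to 0.0627% (median 0.0420%) in the other libraries. Rgm1 averaged 7.30% ± 0.772 (SD, n = 2), which was 184 times the mean of the other fusions (log2 7.46 ± 0.17, SE), and against the Sir4-free library the adjusted p was 1.85e-129 (edgeR). No other fusion reached 0.1% here, the Rpi1 fusion included. When a base was kept only in the library with most reads in its pool, 367 and 331 Rgm1 sites remained in the bin, against 36 of the 115 sites of the other 14 libraries.

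RHO3 is transcribed away from RPI1 across the same intergenic stretch, and its bin (139001 to 140000) was the second fullest. It held 73 and 89 Rgm1 sites (1.54% and 1.80%), against 0.00691% to 0.0866% (median 0.0564%) in the other libraries, with log2 5.13 ± 0.23 (SE) and adjusted p = 4.11e-110 (edgeR). The insertions formed 1 cluster across both bins. In the 3 kb around the RPI1 bin there were 881 Rgm1 sites, of which the central 90% spanned 1180 bp, and the medians of the replicates lay at bases 138716 and 138727. Insertions went in both directions, with 53.9% on the plus strand (95% exact binomial interval 50.6% to 57.2%). The cluster cannot be assigned to RPI1 rather than RHO3 from position.

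**Figure D2:**
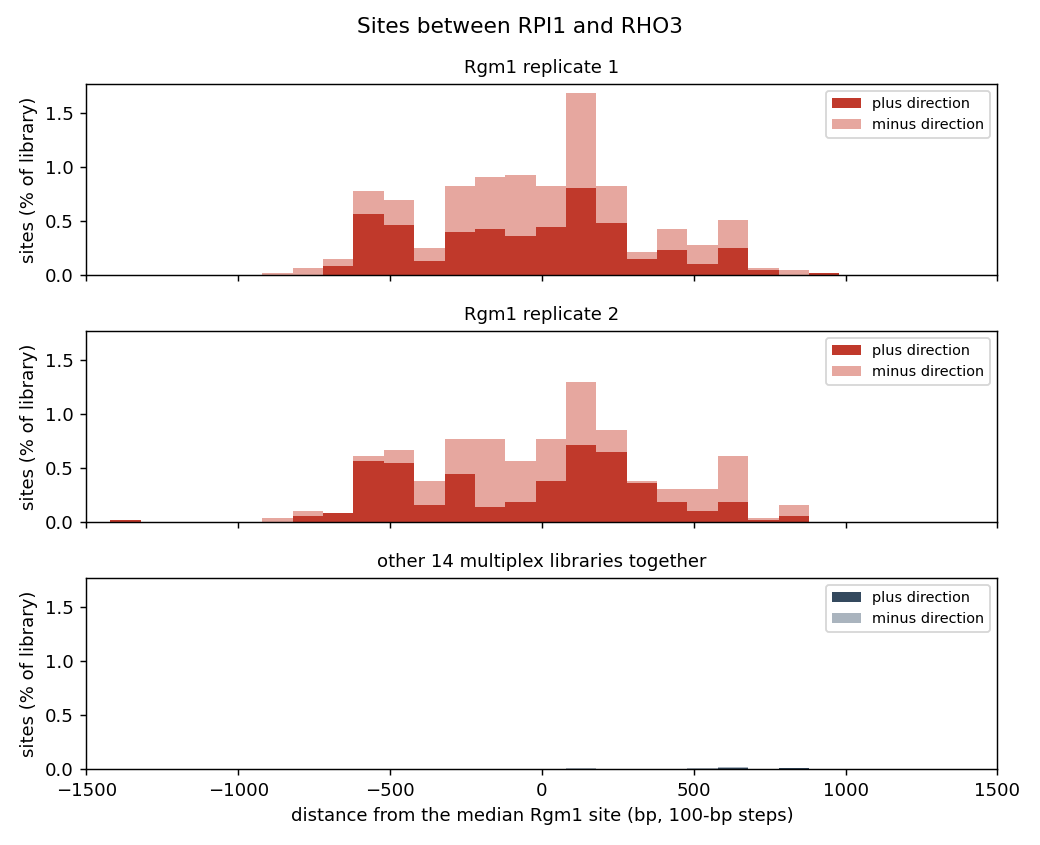
Sites per 100-bp step between RPI1 and RHO3 as percent of a library's sites (vertical axis) against distance in bp from the median Rgm1 site (horizontal axis), by direction of insertion, for Rgm1 replicate 1, Rgm1 replicate 2 and the other 14 libraries together, on 1 scale. Both Rgm1 replicates show a cluster (90% span of their pooled sites 1180 bp), and the other libraries stay near 0.

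The Ras and protein kinase A pathway passes the glucose signal to growth: Ras2 activates adenylate cyclase, the Ira proteins switch Ras off, and cyclic AMP frees the kinase. Of 20 tested genes of the pathway, 3 (RPI1, RAS2 and IRA2) had a bin higher in Rgm1 within 600 bp upstream of their start, against 138 of 5149 genes tested (2.68%). The bin at the start of RAS2 (chromosome 14, 441001 to 442000) held 47 and 54 Rgm1 sites (0.988% and 1.09%), against 0.00621% to 0.0540% (median 0.0204%) in the other libraries. It was 43.5 times their mean, with log2 5.68 ± 0.29 (SE) and adjusted p = 2.76e-81 (edgeR), and the bin to its left was called too (33 and 35 sites). There were 169 Rgm1 sites in the 3 kb around it, of which the central 90% spanned 271 bp, with both replicate medians within 10 bp of each other. PLS1 and PHO23 also start within 500 bp of the RAS2 bin. IRA2 rested on 8 and 4 sites (adjusted p = 0.00676, edgeR) and was not called without Rgm1 replicate 1. The uncalled genes with most Rgm1 sites were RGS2 (5 and 3 sites), GPA2 (2 and 0) and TPK2 (1 and 1). RAS1, CDC25, IRA1, CYR1 and BCY1 had 0 sites in their bins in both Rgm1 libraries. In all, 9 of the 20 genes (45%) had 0 Rgm1 sites upstream, near the 43.8% of all genes tested.

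Among 13 gene lists, those of hexose phosphates and UDP-glucose and of trehalose and glycogen had the largest shares of called members. The lists were chosen with earlier results of these data known, so this order is a description. Among 9 tested genes of hexose phosphates and UDP-glucose, 5 were called (55.6%, against 2.68% of all genes): PGM2, UGP1, HXK1, EMI2 and YHR210C. Glucose-6-phosphate made by hexokinase is turned by phosphoglucomutase into glucose-1-phosphate, and UDP-glucose pyrophosphorylase makes from this the donor for trehalose, glycogen and glucan.

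PGM2, the major phosphoglucomutase, had 80 and 79 Rgm1 sites in its bin (chromosome 13, 477001 to 478000), or 1.68% and 1.60%, against 0.00672% to 0.331% (median 0.0209%) in the other libraries. The 2 highest of the others were the Gal4 libraries, with 35 and 46 sites, and Rgm1 stood above each other fusion when taken singly (log2 5.73 ± 0.24, SE, adjusted p = 1.19e-119 against the mean of the other 7, edgeR). UGP1, UDP-glucose pyrophosphorylase, had 49 and 61 sites (1.03% and 1.23%), against 0.00720% to 0.0538% (median 0.0295%), in a bin it shares with AIM26 (log2 5.42 ± 0.27, SE). HXK1, hexokinase I, had 50 and 54 sites (1.05% and 1.09%), against 0% to 0.0672% (median 0.0367%), with log2 5.03 ± 0.27 (SE). In each of these 3 bins the lowest Rgm1 library exceeded the highest other library more than 4-fold.

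EMI2, a relative of glucokinase (6 and 3 sites), and YHR210C, which resembles aldose epimerases (4 and 5 sites), rested on few insertions. Each call was lost without 1 Rgm1 replicate (EMI2 without replicate 1, YHR210C without replicate 2). EMI2 shares its bin with GRH1. The other members were not called: GLK1 had 1 and 4 sites, HXK2 1 and 1, and PGM1 2 and 0. PGM1 codes for the minor phosphoglucomutase, so within 2 pairs of isoenzymes 1 gene had the Rgm1 cluster, and the differences within pairs were not tested.

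Trehalose and glycogen are the reserve carbohydrates of yeast, made when growth slows. Of 17 tested genes of their metabolism, 6 were called (35.3%, against 2.68% of all genes), and they fell on both sides of each pathway. TPS1, trehalose-6-phosphate synthase, had 27 and 18 sites (0.568% and 0.364%), against 0% to 0.0444% (median 0.0204%) in the other libraries (log2 4.58 ± 0.39, SE, adjusted p = 1.92e-29, edgeR). MEO1 also starts within 500 bp of the TPS1 bin. GSY1 and GSY2 code for the glycogen synthases. GSY1 had 13 and 14 sites (0.273% and 0.283%), against 0% to 0.0130% (median 0%), and 8 of the other 14 libraries had no site there. GSY2 had 24 and 15 sites (0.505% and 0.303%), against 0% to 0.0538% (median 0.0212%), with log2 4.09 ± 0.40 (SE). TSL1, a regulatory subunit of the trehalose synthase complex, had 17 and 14 sites in a bin it shares with CUE4. This bin was 3.61 times the mean of the others, though not above Gal4 or Sef1 taken singly.

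The degrading enzymes were called on fewer sites. NTH1, neutral trehalase, had 4 and 11 sites in a bin it shares with YRB1 (adjusted p = 2.32e-08, edgeR) and was not called without replicate 2. GPH1, glycogen phosphorylase, had 7 and 7 sites (adjusted p = 0.00700, edgeR) and was not called without either replicate. GDB1, GLC3 and GIP2 were the uncalled members with most sites (2 and 3, 2 and 2, and 1 and 3). Over the list the median gene had 0.0408% of Rgm1 sites in the bins of its upstream window, against 0.0145% in the other libraries; over all genes tested these medians were 0.0101% and 0.0102%.

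**Figure D3:**
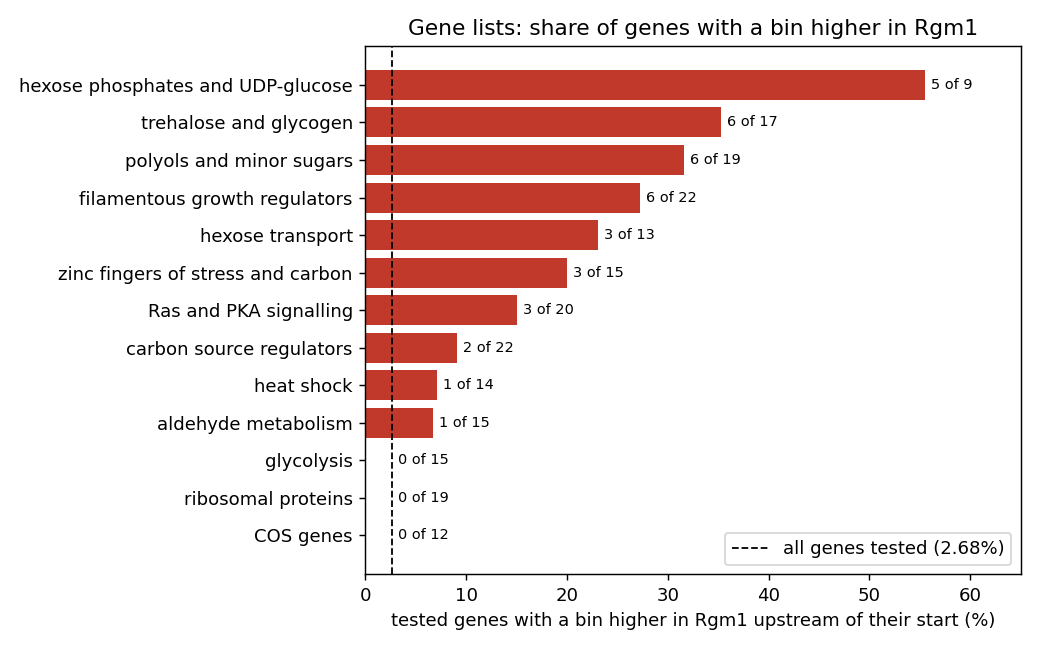
Share of tested genes in each of 13 gene lists with a bin higher in Rgm1 within 600 bp upstream (bars, percent; counts beside the bars), with the share over all genes tested (2.68%) as a dashed line. Hexose phosphates and UDP-glucose (5 of 9) and trehalose and glycogen (6 of 17) are at the top, and glycolysis, ribosomal proteins and the COS genes have 0. The lists were chosen with earlier results of these data known.

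Sugar transporters and polyol enzymes were called, some of them in places where the other fusions had nearly no sites. HXT13, of the hexose transporter family and known to carry polyols, had 35 and 40 Rgm1 sites (0.736% and 0.809%), against 0% to 0.0130% (median 0.000909%) in the other libraries. Those 14 libraries had 10 sites in all, so the ratio of the means, 217, has a small denominator (adjusted p = 8.84e-76, edgeR). HXT7 (7 and 14 sites) and HXT6 (7 and 9 sites) code for high-affinity glucose transporters and had 28.0 and 19.7 times the mean of the other libraries. HXT6 and HXT7 are near-identical neighbours, and how reads that match both were placed is not given, so the split between them is uncertain. In all, 3 of 13 tested hexose transport genes were called (23.1%, against 2.68% of all genes). The glucose sensor gene RGT2 had 4 and 4 sites, GAL2 had 3 and 0, HXT8 had 1 and 1, and none of these was called. HXT3 and HXT5 had 0 sites in their bins in both Rgm1 libraries. Of the list, 4 of 13 genes (30.8%) had 0 Rgm1 sites upstream, against 43.8% of all genes tested.

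Polyol and minor sugar genes gave 6 called genes of 19 (31.6%, against 2.68% of all genes), in 5 bins. DSF1, a mannitol dehydrogenase gene beside HXT13, had 16 and 14 sites (0.336% and 0.283%), against 0% to 0.0134% (median 0%), with 9 of the other 14 libraries at 0 (adjusted p = 3.12e-28, edgeR). The other libraries had 7 sites there in all, below the 10 needed for testing, so this bin was tested only through the Rgm1 sites. MAN2, a near copy of DSF1, had 7 and 11 sites. The sorbitol dehydrogenase genes SOR2 and SOR1 had 5 and 16 sites and 7 and 10 sites. MAL13, an activator of maltose genes, and IMA1, an isomaltase, share 1 bin with 7 and 6 sites. DSF1 with MAN2, and SOR1 with SOR2, are near-identical pairs, so their separate counts are uncertain; MAN2, SOR1 and SOR2 had too few sites to be tested when at least 5 reads were required. MAL11, MAL12 and MAL31 were not called.

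Zinc-finger regulators of stress and carbon use formed the next group. MSN4, which activates stress genes, had 42 and 39 Rgm1 sites (0.883% and 0.789%), against 0.0134% to 0.0807% (median 0.0323%) in the other libraries (log2 4.57 ± 0.29, SE, adjusted p = 1.05e-53, edgeR). GIS1, a regulator of genes at the diauxic shift, had 40 and 24 sites (0.841% and 0.485%), against 0% to 0.0666% (median 0.0298%), with log2 4.54 ± 0.32 (SE). At GIS1 21.5% of 65 insertions were on the plus strand (95% exact binomial interval 12.3% to 33.5%). USV1 was called on 6 and 8 sites (adjusted p = 0.0149, edgeR), but Rgm1 averaged 0.144% there against 0.512% for Gal4, and the call was lost without either Rgm1 replicate. MSN2, the paralog of MSN4, had 1 and 6 sites and RSF2 had 3 and 4 at their starts, and neither was called there. Of 15 tested genes, 3 were called (20%, against 2.68% of all genes). The USV1 call was also lost when a base was kept once per pool, with at least 2 or at least 5 reads per site, and with factors from the 1-kb bins. Under each of these settings 2 genes of the list were called.

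At its own gene Rgm1 had few insertions. The bin at the start of RGM1 held 8 and 2 sites (0.168% and 0.0404%), against 0.0138% to 0.0953% (median 0.0466%) in the other libraries, and was not called (adjusted p = 0.693, edgeR). The neighbouring bin inside the 500 bp naming distance held 4 and 6 sites (adjusted p = 0.00734, edgeR), a mean of 0.103% against 0.0919% for the Yrm1 fusion; the call was lost without either Rgm1 replicate and with at least 2 or at least 5 reads per site.

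ZNF1, a zinc-cluster regulator of respiratory and gluconeogenic genes, showed the widest ratio of the 106 bins. Its bin (chromosome 6, 27001 to 28000) had 39 and 63 Rgm1 sites (0.820% and 1.27%), against 0% to 0.0135% (median 0%) in the other libraries, which had 8 sites in all. Rgm1 was 426 times their mean, and the adjusted p was 1.37e-109 (edgeR). The other libraries alone fell short of the 10 sites needed for testing, so Rgm1's own sites brought this bin into the test. Its ratio and p-value are therefore given as a description. The fitted log2 of 9.60 depends on the prior count, since 4 of the other 7 fusions had no site there in either library. The next bin of ZNF1 was called too, with 16 and 28 sites. ADR1, an activator of genes repressed by glucose, was the other called gene of 22 carbon source regulators, with 14 and 17 sites (adjusted p = 0.000152, edgeR); it was not called without Rgm1 replicate 2, with at least 5 reads per site or with factors from the 1-kb bins. HAP1, GCR1 and TYE7 were not called, and the called share of this list was 9.09%, against 2.68% of all genes.

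Regulators of filamentous growth, the switch to chains of elongated cells, had 6 called genes of 22 (27.3%, against 2.68% of all genes). The median gene of this list had 0.0362% of Rgm1 sites in the bins of its upstream window, against 0.0428% in the other libraries. MGA1, which resembles heat shock factor, had 28 and 19 sites (0.589% and 0.384%), against 0% to 0.0800% (median 0.0202%) in the other libraries (log2 4.84 ± 0.40, SE, adjusted p = 2.22e-31, edgeR). The bin upstream of CIN5, a bZIP factor, which is also the bin of YOR029W, had 15 and 16 sites and was 45.5 times the mean of the others. SOK2, a repressor of filamentation (15 and 14 sites), and TOS8, a homeodomain protein (8 and 13 sites), were called as well. SOK2 shares its bin with SPO20. HMS1 (3 and 7 sites) was not called without replicate 2. MIT1 was called with Rpi1 far above Rgm1, as described with the bins led by other fusions. YAP6, ASH1 and SKN7 were not called, and SFL1, a repressor of flocculation genes, lay in a bin that was lower in Rgm1.

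Some of the 20 leading bins were named after genes outside the lists. The bin of YBL029W, a gene of unknown function, had 68 and 86 sites (1.43% and 1.74%), against 0% to 0.0733% (median 0.0381%) in the other libraries, with log2 5.78 ± 0.24 (SE). The bin of YPL062W, which lies upstream of the aldehyde dehydrogenase gene ALD6, had 51 and 62 sites (1.07% and 1.25%), against 0.0337% to 0.310% (median 0.0670%), with log2 3.88 ± 0.24 (SE). In the 16-library fit it was not above Gal4 taken singly. ALD6 was called in its list with this same bin in its upstream window. The bin at PRY3, ICS3 and NET1 had 53 and 47 sites (1.11% and 0.950%), against 0.0276% to 0.193% (median 0.0673%). The bin of YKL063C, next to that of MSN4, had 27 and 31 sites.

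Other lists were near the background. ALD6, whose upstream window reaches the bin of YPL062W, was 1 called gene of 15 in aldehyde metabolism (6.67%, against 2.68% of all genes). HSP42, on 6 and 2 sites, was 1 of 14 heat shock genes (7.14%) and was not called without replicate 1. Glycolysis had 0 of 15 called higher, and TDH3, TDH1 and PGK1 were its members with most Rgm1 sites. Ribosomal protein genes had 0 of 19 and the subtelomeric COS genes 0 of 12 (edgeR). With 2.68% of all genes called, lists of this size can have 0 called without differing from the background. At an unadjusted p under 0.05 these counts were 2, 1 and 0, and DESeq2 called 1, 0 and 0.

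Within the leading bins the insertions were narrow clusters. Over the 20 bins, with the 3 kb around each, the central 90% of Rgm1 sites spanned 237.5 to 1180 bp (median 466.6 bp), and the medians of the replicates differed by a median of 10.5 bp and at most 29.5 bp. TPS1 had the narrowest cluster, at 237.5 bp. In 5 of the 20 the 95% interval for the share on the plus strand excluded 50%; adjoining bins such as RPI1 and RHO3 share most of their sites.

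Another fusion had a larger mean share than Rgm1 in 11 of the 106 bins. At MIT1, a regulator of filamentous growth, Rgm1 had 42 and 36 sites (0.883% and 0.728%), against 672 and 576 sites of the Rpi1 fusion, a mean of 3.86%. Of the Rgm1 sites there, 41 of 42 and 32 of 36 lay at a base that Rpi1 also had in the same pool, and 38 and 34 at one that Rpi1 had in the other pool. The Rgm1 sites of the bin had medians of 8.5 and 3.5 reads, and the Rpi1 insertions at the bases shared in the same pool had medians of 403 and 163.5 reads. When a base was kept only in the library with most reads in its pool, 3 and 6 of the Rgm1 sites at MIT1 remained, 11.5%, against 89.0% over all bins and 98.7% at RPI1. With sites counted by this rule the MIT1 bin was still called higher in Rgm1 (edgeR). What the sharing contributes to the call was not tested further.

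The other 10 such bins had less sharing. At WSC4, a sensor of the cell wall, Rgm1 had 17 and 16 sites against a mean of 2.05% for Rpi1, and 8 and 11 sites remained under the same rule. Gal4 led at ALD6, ADR1, ZEO1 and USV1, Sef1 at the bin of BAG7 and IDH2, at PIC2 and near PDR12, and Rpi1 at TDA10 and ACA1. For ADR1 11 and 7 of 14 and 17 sites remained. Since these bins were called against the mean over fusions on the log scale, 1 fusion with many sites weighs little in that mean: at BAG7 and IDH2 the mean share of Rgm1, 0.185%, was 0.976 times that of the others.

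**Figure D4:**
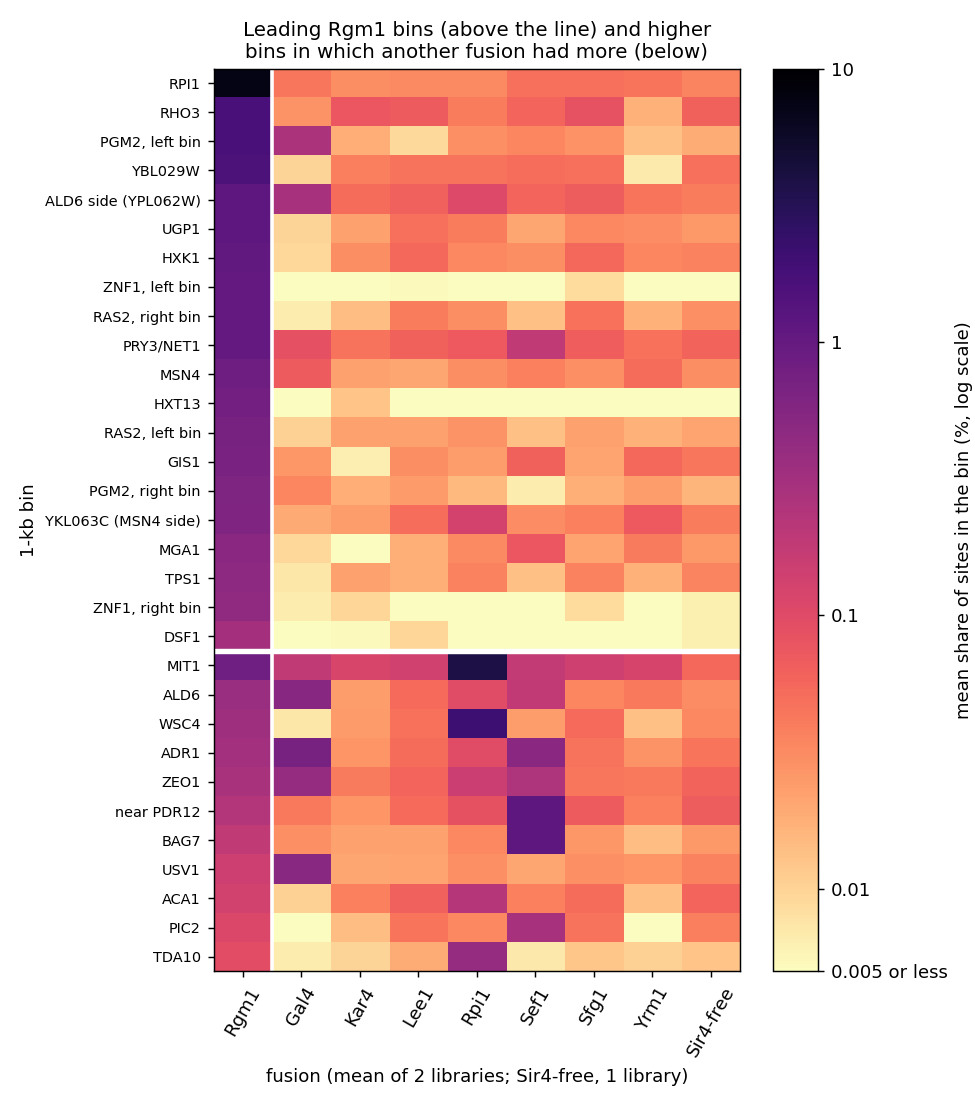
Mean share of sites (percent, log colour scale) of Rgm1, each other fusion and the Sir4-free library in the 20 leading bins (above the white line) and in the 11 higher bins where another fusion had more (below). Rgm1 is the darkest column in every leading bin, as the choice of these bins required. Below the line the darkest cell belongs to Rpi1 at MIT1, with a mean of 3.86%.

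The 6 lower bins held fewer Rgm1 sites than the mean of the other fusions. Near PYK2 Rgm1 had 2 and 2 sites, a mean of 0.0412%, against 0.0384% to 1.49% (median 0.273%) in the other libraries, with Gal4 highest. At GAL7, a galactose gene bound by Gal4, Rgm1 had 1 and 1 sites and Gal4 a mean of 2.81%; Rgm1 was 0.0426 times the mean of the others (95% Poisson interval 0.00515 to 0.154). At QCR6 and PHO4 Rgm1 had 5 and 1 sites and Sef1 a mean of 1.83%. ADH6 had 1 and 0 Rgm1 sites, 0.0898 times the mean of the others (0.00227 to 0.500). FTR1 and the bin of RUP1 and SFL1 had 0 Rgm1 sites in both libraries, which with a floor of 3 sites over both libraries is at least 3.60-fold lower and at least 6.79-fold lower than the mean of the others. Against the Sir4-free library none of the 6 was called lower, although the mean share of Rgm1 lay below it in all but the bin of QCR6 and PHO4 (0% against 0.0515% at FTR1, adjusted p = 0.595, edgeR). Without Rgm1 replicate 1 there was 1 lower bin, and without replicate 2 there were 0 (edgeR; 25 with an unadjusted p under 0.05).

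Insertions of Rgm1 lay inside annotated genes less often than those of any other fusion. The share was 21.0% and 21.9% in the Rgm1 libraries, against 26.0% to 46.1% (median 29.7%) in the other 14 and 34.7% in the Sir4-free library. An exact permutation test over the 16 libraries gave two-sided p = 0.0167, the smallest that the design allows, and the Rgm1 libraries lay below all 14. The permutation treats the 16 libraries as exchangeable, but libraries of 1 fusion share that fusion and are not independent. Its p-values, here and in the rest of this paragraph, therefore overstate the evidence for a difference between fusions. The independent units are the 8 fusions, and the mean of Rgm1 was the lowest of the 8. Without the RPI1 bin and the bins touching it the Rgm1 shares were 23.4% and 24.1%, with the same p. The share within 500 bp upstream of a gene and in no gene was 51.3% and 51.8%, against 38.7% to 57.7% in the other libraries (exact permutation, two-sided, p = 0.483). With a window of 1000 bp it was 73.7% and 72.9%, against 51.3% to 69.4% (exact permutation, two-sided, p = 0.0167). Without the RPI1 bin and the bins touching it, this narrowed to 70.8% and 70.1%, against 51.3% to 69.4%, with the same p. Chromosome 11, where the annotation is displaced, was left out of these shares.

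The fullest bin held 7.84% and 6.75% of Rgm1 sites, against 0.148% to 4.82% of the other libraries' sites in their own fullest bins (exact permutation, two-sided, p = 0.0167), and Rgm1 ranked first of the 8 fusions. Over the 10 fullest bins Rgm1 was not set apart: 18.6% and 18.8% of sites, against 1.27% to 28.6% in the other libraries (exact permutation, two-sided, p = 0.467), and its mean had rank 3 of 8. These measures have each library choose its own bins. The permutation again treats libraries of the same fusion as independent, so a small p from it overstates the evidence for a difference between fusions.

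**Figure D5:**
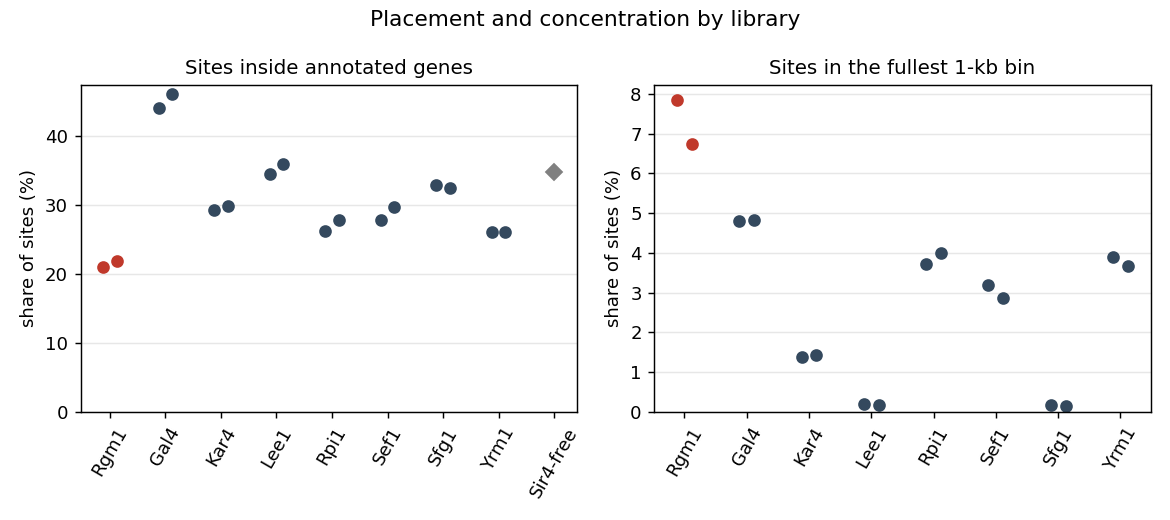
Share of sites (percent) inside annotated genes (left) and in the library's fullest 1-kb bin (right); each point is 1 library, with Rgm1 first, then the other 7 fusions, and the Sir4-free library as a diamond on the left plot. Rgm1 is lowest on the left, at 21.0% and 21.9%, and highest on the right, at 7.84% and 6.75%.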

How the data were processed

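Each library was deposited as a list of insertion sites with a count of reads per site: per the labels, the authors sequenced inverse PCR products on an Illumina GAII, and no source used here gives the read mapping, the site filters or the genome build. No molecular identifiers are named. Rows with the same chromosome, base and direction were merged, and distinct sites were counted in 1-kb bins. Bins with at least 10 sites over the 16 multiplex libraries were tested. Sites of Rgm1 counted toward this minimum, and some bins reached it only with them. Files of the plasmid and Thi2 libraries were not used.

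The quasi-likelihood fit (glmQLFit and glmQLFTest of edgeR 4.0.16, with limma 3.58.1 under R 4.3.3) had 8 residual degrees of freedom and a biological coefficient of variation of 0.102; DESeq2 1.42.0 was an alternative. TMM factors came from 611 windows of 20 kb, because on data simulated for Rgm1 against the other 7 fusions the factors from 1-kb bins were 1.64 and 1.63, against 0.706 from the same bins without counting noise, while those from 20-kb windows were 1.05 and 0.997, against 0.945. Factors were 1.03 and 1.00 for Rgm1 and 0.406 to 1.57 for the others. Standard errors are the log2 difference over the root of F.

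RefSeq's R64 annotation gave names and neighbours only, with strand from the systematic name. Its offset to the data had a median of 0 bp (-45 to 20 bp outside chromosome 11), so no annotation coordinate is printed. A bin bears the genes that start within 500 bp of it (900 bp on chromosome 11). A list gene was called when a bin overlapping 600 bp upstream of its start was called (400 bp wider on chromosome 11).

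The gene lists (14, with 249 entries) and the comparisons were chosen with earlier results of these data known; 1 list is not reported here. Text names the 20 higher bins with the smallest p that exceeded all 14 other libraries, the lower bins, the called list genes and up to 3 uncalled genes per list; other bins named were chosen after their values were seen. Replicate numbers mark a shared pool, per the labels. Deviations of same-pool libraries had a median correlation of 0.0757 over 28 pairs (-0.0496 to 0.0830 for the 7 pairs with Rgm1). Matching of motifs to promoters was planned and not run, as no sequence was at hand. Permutation tests used scipy 1.17.1 (Python 3.11.15).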

Additional observations from a re-analysis of the deposited data

How the results depend on the processing

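Over 31 alternatives, the count of bins higher than the other 7 fusions ran from 64 to 108, and 29 were within 1.5 times the 106 reported. It was 64 with sites of at least 5 reads, and 67 to 108 when 1 library was left out. The lower count, 6, was 2 when a base was kept once per pool, 49 with TMM factors from the 1-kb bins, and 0 to 7 when 1 library was left out (3 without Lee1 replicate 1); the cause was not tested. With the pool number as replicate block, 104 bins were higher and 7 lower, and the block changed no call among the 48 single bins reported. Against the Sir4-free library the higher count was 69 at 5 reads per site and 82 to 90 without 1 Rgm1 replicate, and 1 bin was lower without TMM. The difference in the share inside genes was -11.0 to -10.1 percentage points without 1 Rgm1 replicate (the smallest p is then 0.133), and that upstream was 11.7 points with the window of 1000 bp (p = 0.0167, exact permutation), against 2.95 with 500 bp. The difference in the 10 fullest bins was 5.65 to 5.80 points without 1 Rgm1 replicate.

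None of the 48 bins changed direction, and the 20 leading bins were called under all alternatives that tested them; shifted bins were counted only. The median log2 over all bins was -1.65, and -1.79 with factors from 1-kb bins. The Rgm1 libraries had a site in 1983 and 2021 bins of the genome, while 5460 bins were tested, and what lowers this median was not tested. Alternatives added after seeing the data were the site kept once per pool, the 1-kb factors, the removal of Sfg1 (104 higher) and the 1000 bp window. Also added were the shares inside genes and within 1000 bp upstream without RPI1. With 4755 and 4946 sites, 20 of the 106 higher bins rest on under 10 sites. The p-values of the fits measure the spread between 2 pools. Those of the permutation tests treat libraries of the same fusion as independent.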

Other observations

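A few higher bins outside the lists and the leading 20, chosen after their values were seen, are given here; values after "against" are medians of the other libraries. The bin at RFX1, a repressor of DNA damage genes, had 12 and 25 Rgm1 sites, a mean of 0.379%, against a median of 0.0237% in the other libraries. The bin between XBP1, a stress-induced repressor, and SGA1, a glucoamylase of sporulation that degrades glycogen, had 12 and 12 sites, a mean of 0.247% against 0.0261%, and was not above Yrm1 taken singly. FAA1 and FAA4 code for acyl-CoA synthetases: the bin at FAA4 had 11 and 22 sites (0.338% against 0.0591%) and that at FAA1 9 and 7 (0.165% against 0.0296%); FAA4 was not above Sef1 taken singly, nor FAA1 above Sef1 or Yrm1. FKS1, a subunit of glucan synthase, which uses UDP-glucose, had 10 and 9 sites, a mean of 0.196% against 0.0441%, but Sef1 averaged 0.153% there and Rgm1 was not above Gal4, Rpi1 or Sef1 taken singly.

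The bin at EDS1, a zinc-cluster gene, had 14 and 19 Rgm1 sites, a mean of 0.339%, while the Gal4 fusion averaged 0.209% there and was not exceeded when taken singly. The bin at RSF2, next to the uncalled bin at its start, had 11 and 4 sites and was called (a mean of 0.156% against 0.0283%), though not above Gal4 or Yrm1 taken singly. The bin at GTS1 had 10 and 9 sites, against a median of 0% in the other libraries. Those libraries had 6 sites there in all, so this bin was tested only through the Rgm1 sites.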
